A study of Mus musculus with 7 samples.

Results

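The 4 untreated libraries of primary mouse oligodendrocyte precursor cells (OPCs) are described here, 4 of the 7 libraries in the series, across all 48795 genes of the deposited table. They were chosen by their label alone, and the 3 libraries given phenylephrine were not used. The cells were labelled as wild-type primary cells of the CD-1 mouse strain, taken from pups of postnatal days 4 to 7 with both sexes in equal number, with no treatment and a time of 1 hour. No vehicle is named. Protocol fields of the same labels mention tamoxifen, viral delivery and immunoprecipitation from cortex, which do not match the label of wild-type primary cells. Whether any of them applied to these cells is not stated. Nothing in the labels says whether the libraries, numbered control 1 to 4, came from separate litters or cultures, so the spread between them may be partly technical. With 1 group there is no comparison to test, and all values are descriptions.

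OPCs are the dividing glial cells of the brain that carry the PDGF receptor PDGFRA and the proteoglycan NG2, and that give rise to myelinating oligodendrocytes through a GPR17-positive committed stage. They are kept dividing by growth factors, listen to neurons through glutamate and GABA receptors, and carry potassium, sodium and calcium channels. Albumin, which also appears below, is the main plasma protein and is secreted by hepatocytes.

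The libraries held 13062120 to 17962339 counts and 22650 to 23024 genes with a count, and 3 counts corresponded to 0.169 to 0.227 CPM (counts relative to the TMM-adjusted library total). Between 96.5% and 96.9% of counts were in protein-coding genes and 2.06% to 2.53% in mitochondrially encoded genes. Several mitochondrially encoded genes were listed at or near 0, as described below, so the latter is a share of counts and not of RNA. Across genes, Pearson's r of log2 CPM ran from 0.877 for controls 1 and 4 to 0.983 for controls 3 and 4, with 0.970 for controls 1 and 2; the points share library depth and gene length. Every pair differed by more than sampling noise, with chi-square per degree of freedom of 12.0 to 102, and no columns were merged. Separate preparations of 1 culture would also exceed counting noise, so these values do not show separate cultures. CPM compares 1 gene between libraries. TPM, which also divides by the length of all exons of a gene, compares genes. Where 4 values follow each other they are controls 1, 2, 3 and 4, and values after ± are SDs over these libraries (n = 4).

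A pair of promoter windows is shown, chosen because they hold the motif words described below. Each belongs to the gene with the highest mean TPM among such windows of the hepatocyte or G1/S list. The genes behind them ordered the libraries in opposite ways. Alb, which encodes albumin, was highest in control 1, and Mcm6, a subunit of the DNA replication helicase, was highest in control 4. Both sequences are RefSeq windows on GRCm38.p6 from 250 bases before to 50 after the transcript start, 5′ to 3′, with the motif letters in capitals.
Alb, chr5:90460620-90460919, plus strand: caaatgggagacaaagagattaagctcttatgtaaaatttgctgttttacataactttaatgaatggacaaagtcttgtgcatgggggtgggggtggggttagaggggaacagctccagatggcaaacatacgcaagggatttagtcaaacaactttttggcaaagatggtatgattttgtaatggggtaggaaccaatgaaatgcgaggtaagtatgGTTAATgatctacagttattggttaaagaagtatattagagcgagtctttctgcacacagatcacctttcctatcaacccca
Mcm6, chr1:128359656-128359955, minus strand: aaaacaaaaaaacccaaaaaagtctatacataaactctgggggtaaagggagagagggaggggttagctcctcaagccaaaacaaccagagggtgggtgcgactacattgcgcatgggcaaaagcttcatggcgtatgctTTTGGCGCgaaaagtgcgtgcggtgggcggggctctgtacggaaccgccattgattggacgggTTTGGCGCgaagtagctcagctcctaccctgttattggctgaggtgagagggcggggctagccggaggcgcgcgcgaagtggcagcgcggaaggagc
The capitals in the Alb window are GTTAAT, a core word of the sites of HNF1, a transcription factor of hepatocytes. Searched on both strands, it occurred in 11 of 36 windows of 32 matched hepatocyte genes (30.6%) and in 7.10% of all 32851 windows. The capitals in the Mcm6 window are TTTGGCGC, searched together with TTTCCCGC as E2F words. Either word occurred in 10 of 31 windows of 26 matched G1/S genes (32.3%) and in 1.56% of all windows. Windows were counted, so words that overlap on opposite strands count once, and a match describes letters in a window only.

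Untreated OPC cultures expressed a broad set of genes led by mitochondrial, translation, cytoskeletal and OPC transcripts. At least 1 CPM was reached in every library by 14018 genes, which is 28.7% of the table, and 12566 of them were protein-coding, 841 processed pseudogenes and 135 lincRNAs. At least 10 CPM was reached in every library by 9679 genes, 100 CPM by 2107 and 1000 CPM by 29. No count in any library was found for 21939 genes. The 10 most abundant genes held 3.31% to 4.18% of counts, the top 100 held 12.7% to 14.2% and the top 1000 held 42.3% to 43.4%.

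The gene with the highest mean CPM was mt-Co1, a subunit of cytochrome oxidase, at 6600.0 ± 1212 CPM, followed by mt-Cytb, mt-Nd1, the desaturase gene Scd2 and mt-Nd5. Next came the elongation factors Eef2 and Eef1a1, then Actb, Ptprz1 and Hsp90ab1. Ptprz1, a receptor phosphatase abundant on OPCs, had 1946, 2406, 2905 and 3071 CPM. Alb followed at rank 11 and Gpr17, the receptor of committed precursors, at rank 12. Qk, an RNA-binding protein needed for myelination, mt-Nd2, Tnr, Eif4g2, Pdgfra, Hnrnpa2b1, Olig1 and Tubb5 completed the first 20. Of these 20, the OPC identity list holds 4, Ptprz1, Gpr17, Pdgfra and Olig1.

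**Figure D1:**
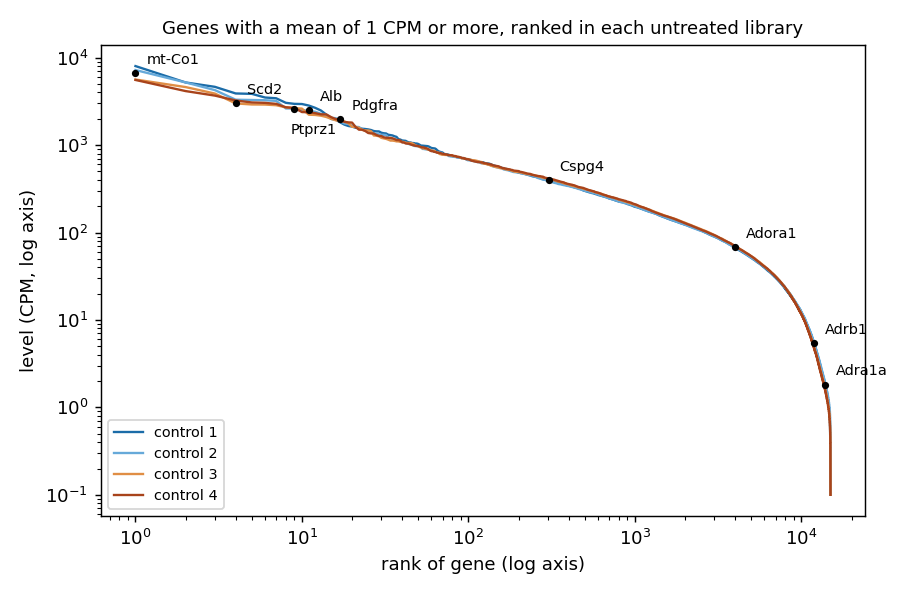
CPM (log axis) against the rank of the gene (log axis), with 1 curve per untreated library over genes with a mean of at least 1 CPM and black points at the mean CPM and rank of named genes. The 4 curves nearly coincide, and Alb stands at rank 11, between Ptprz1 and Pdgfra.

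Per length, the highest nuclear protein-coding gene was Alb at 4061 ± 1939 TPM. Eef1a1 followed with 4027 ± 323 TPM, and Actb with 3740.3 ± 277 TPM; the SD of Alb is wider than its distance to both, so these 3 are not ordered beyond their spread. Olig1, a basic helix-loop-helix factor of the oligodendrocyte lineage, had 2993 ± 369.8 TPM. Fabp7, the brain fatty acid binding protein of immature glia, had 1993 ± 85.6 TPM, and Bcas1, a marker of premyelinating cells, had 1662 ± 939 TPM. Tuba1a, Ywhae, Scd2, Tubb5, Tmsb4x, Gpr17, Cfl1, Serpina3n and the ribosomal genes Rplp1, Rpl4, Rps15 and Rpl8 were also among the first 20, with Hsp90ab1 and Eef2. Serpina3n, a secreted protease inhibitor induced in reactive glia, differed 3.66-fold between libraries.

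Alb and the other hepatocyte genes were abundant, with a median TPM over the 4 libraries near that of the OPC identity list. Alb (ENSMUSG00000029368, chromosome 5, 90460897 to 90476602 on GRCm38) had 3893, 3303, 1609.9 and 1374 CPM, so controls 1 and 2 were both above controls 3 and 4. A list of 44 hepatocyte genes, drawn up after Alb had been seen among the most abundant genes, took 1.16%, 0.975%, 0.470% and 0.400% of counts. Of these 44, 43 reached 1 CPM in every library against 28.7% of all genes, and the median of the list was 152 TPM. That median for the OPC identity list was 135 TPM. Summed TPM of the 44 hepatocyte genes was 18127, 15249, 7798 and 6461. For the 28 OPC identity genes it was 12572, 11847, 10647 and 10111, so which list was higher differed between libraries. Since the hepatocyte list was made with these values in view, its count and levels are not independent evidence.

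The hepatocyte genes covered plasma proteins, lipid carriers and liver enzymes. Apoa1, the main protein of high-density lipoprotein, had 283, 238, 120.0 and 95.1 CPM. Hpx, which binds haem in plasma, had 281, 239.6, 123 and 100.1 CPM. Ahsg, encoding fetuin-A, had 393, 316, 156 and 138 CPM. These plasma protein genes all had their highest value in control 1 and their lowest in control 4. Cyp2e1, a liver cytochrome P450, had 267, 223, 109.5 and 95.4 CPM, and Mat1a, the liver enzyme for S-adenosylmethionine, had 397, 333, 165 and 138 CPM. Hnf4a, a transcription factor of hepatocytes, had 26.8 TPM on average. Afp, the albumin relative made by fetal liver, was the 1 member below 1 CPM in a library, at 0.562 TPM.

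Alb's CPM stood in the ratio 1 to 0.848 to 0.414 to 0.353 over the 4 libraries. Of the 42 hepatocyte genes with a mean of at least 10 CPM, 39 including Alb lay within 10% of this profile in every library. Among all 10549 genes with that mean, 150 did, and they held 2.40%, 1.98%, 0.969% and 0.823% of counts. Genes with the profile are not all hepatocyte genes. Of the 846 matched genes in the lists drawn up from OPC and brain biology, 7 had the profile. They were Trf, Vtn, Agt, Gal3st1, Myc, Rhob and Ttyh1, and Trf, Vtn and Agt are also made by liver. Camsap2 and Gm42418, which are on none of the lists, had the highest mean CPM of the profile genes after Alb. The tolerance of 10% and the use of Alb as reference were set after the values were seen.

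Genes of other organs were listed at the same time. All 4 testis genes were at 0 in every library, and all 6 kidney genes, all 5 lymphocyte genes and all 4 adipose genes were below 1 CPM in at least 1 library. At least 1 CPM in every library was reached by 3 of 5 intestine genes, 2 of 4 lung genes, 2 of 4 skin genes, 1 of 6 pancreas genes and 1 of 9 muscle genes, against 28.7% of all genes. Apoa4, a lipoprotein gene of intestine that mouse liver also expresses, had 92.4, 77.1, 37.2 and 33.6 CPM and was among the genes with Alb's profile. The pancreatic lipase Pnlip had 24.3, 12.5, 35.4 and 38.9 CPM, and the lung surfactant gene Sftpc had 7.76, 7.11, 2.13 and 2.36 CPM. Ttr, a plasma protein of liver and choroid plexus, had 125, 104, 54.5 and 44.7 CPM. Of the other 6 choroid plexus genes, Aqp1, a water channel, had 5.97, 4.76, 2.58 and 2.08 CPM, and Kcnj13, Folr1, Kl, Clic6 and Otx2 reached at most 0.378 CPM in a library. Of the muscle genes, Acta1, skeletal actin, had 8.03, 8.09, 3.55 and 2.64 CPM and the others were below 1 CPM in every library, and of the skin genes Krt10, a keratin, had 3.36, 4.38, 3.36 and 3.88 CPM. Haemoglobin genes were at most 0.549 CPM in a library, but 59.4% (Hbb-bt) to 91.0% (Hba-a2) of their 31-base words also occur in other annotated genes, so these levels are uncertain. Alas2, the haem synthesis enzyme of red blood cell precursors, had 3.98, 3.33, 2.00 and 1.63 CPM. The origin of the hepatocyte transcripts was not tested.

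**Figure D2:**
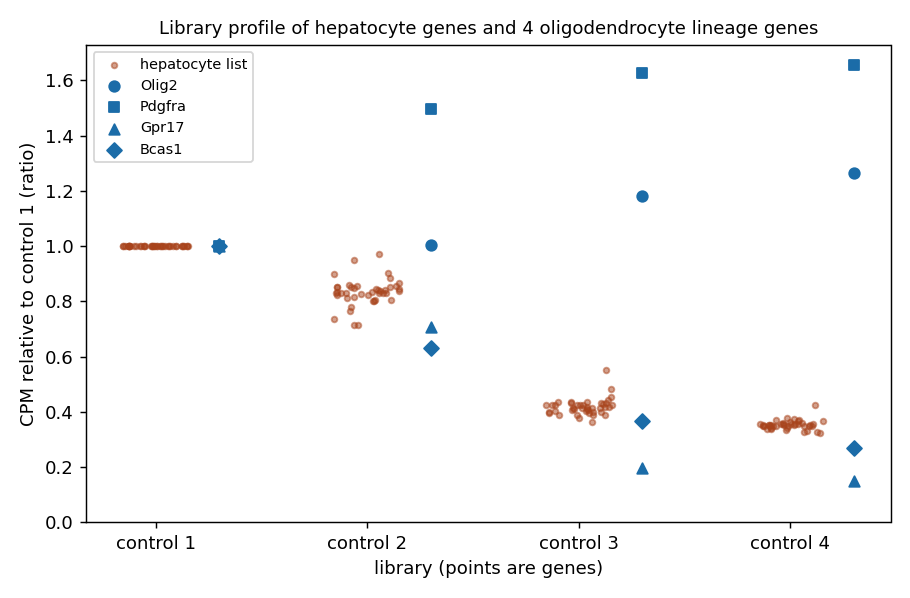
CPM of each hepatocyte gene with a mean of at least 10 CPM relative to its value in control 1, with Olig2, Pdgfra, Gpr17 and Bcas1 for comparison. Brown points are hepatocyte genes, most of them near Alb's ratios of 0.848, 0.414 and 0.353. Gpr17 and Bcas1 are also below 1 in controls 2, 3 and 4. Pdgfra is above 1 in these libraries, and Olig2 is near 1 in control 2 and above it in controls 3 and 4.

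OPC identity genes were abundant in every library, and 27 of 28 reached 1 CPM throughout, against 28.7% of all genes. Pdgfra (ENSMUSG00000029231, chromosome 5, 75152292 to 75198215), the PDGF receptor that keeps OPCs dividing, had 1357, 2030.0, 2211 and 2246 CPM. Olig2 (ENSMUSG00000039830, chromosome 16, 91225457 to 91228677), the master factor of the lineage, had 821, 823, 969.7 and 1038 CPM, a range of 1.26-fold. Both were lowest in control 1. Sox10, which drives the lineage towards myelination, had 635, 494, 457 and 379 CPM, highest in control 1. Cspg4, encoding NG2, had 291, 354, 507 and 423 CPM, and Lhfpl3, a marker of OPCs in brain atlases, had 439, 387, 350.4 and 408 CPM. The member below 1 CPM in a library was Susd5, named after its values were seen, at 2.80 TPM. As libraries are bulk samples, fewer cells of a type and less RNA per cell cannot be told apart here or below.

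Not all OPC genes were equally steady. Of the 27 members with a mean of at least 10 CPM, 10 differed more than 2-fold between the highest and lowest library, against 17.0% of all 10549 genes with that mean, and 0 differed less than 1.2-fold, against 19.2%. Gpr17 (ENSMUSG00000052229, chromosome 18, 31942997 to 31949636) had 4635, 3278, 918 and 688 CPM, a range of 6.73-fold. Nkx2-2, a homeodomain factor of early differentiation, had 286, 212, 87.5 and 75.3 CPM. Megf11, a receptor-like gene of OPCs, had 13.2, 26.4, 58.0 and 61.2 CPM, highest in control 4 and lowest in control 1, the reverse of Gpr17 and Nkx2-2. Neu4, a sialidase of committed cells, had 107, 81.3, 39.3 and 22.7 CPM.

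Committed precursor genes were also abundant, and many of them differed between libraries. Of 17 with a mean of at least 10 CPM, 10 had a range over 2-fold, against 17.0%. Bcas1 had 2961, 1873, 1085 and 800.5 CPM and Tnr, which encodes the matrix protein tenascin-R, had 3429.6, 2227, 1469 and 1196 CPM. Tcf7l2, a Wnt pathway factor switched on as OPCs differentiate, had 128, 71.6, 38.2 and 21.8 CPM. In each of these control 1 was highest and control 4 lowest, as were Bmp4, Kif19a, Sirt2 and Lims2. The summed CPM of the list was 14492, 10091, 6290.4 and 4633, and that of the hepatocyte list was 11489, 9632, 4745 and 4042; their part in each other was not tested. Fyn, a kinase that links axon contact to myelin gene translation, had 828, 722, 672 and 577 CPM, and Casr, the calcium-sensing receptor, was at 0.0980 TPM.

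Mature oligodendrocyte genes ranged from abundant to nearly undetected. Cnp, an enzyme of myelin, had 1511, 889, 572 and 391 CPM. Mbp, which compacts myelin, had 727, 468, 772 and 403 CPM. Cldn11 and Ugt8a, for myelin tight junctions and galactolipids, had means of 708 TPM and 276 TPM. Genes of later maturation were low, with Mog at 15.4 TPM, Opalin at 9.23 TPM, Mal at 5.10 TPM, Aspa at 0.530 TPM and Hapln2 at 0.195 TPM. Of 15 members with a mean of at least 10 CPM, 11 differed more than 2-fold against 17.0% of all genes. Myrf, the factor that starts myelin gene expression, had 497, 198, 117 and 49.3 CPM, and Mobp, a myelin protein, had 49.5, 15.7, 1.10 and 25.7 CPM, the widest range of the list. The summed CPM of the list was 5699.5, 3476, 2874 and 1934.

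Lineage transcription factors reached 1 CPM in every library for 53 of 60 listed, against 28.7% of all genes. Sox2, a progenitor factor, had 655, 547, 392 and 379 CPM. Sox6, which holds OPCs undifferentiated, had 1124, 815, 705 and 638 CPM, and Sox8, a relative of Sox10, had 435, 230.0, 224 and 224 CPM. Id2, an inhibitor of basic helix-loop-helix factors, had 86.6, 93.1, 142 and 173 CPM. Zeb1 and Etv4 were highest in controls 3 and 4, with Etv4, an ERK pathway target, at 10.3, 25.5, 61.1 and 58.7 CPM. The 7 others were below 1 CPM in at least 1 library. Of these, Hoxb5 was at 0 in all libraries, and Hoxc6, Hoxa5, Gbx2, Nkx6-1, En1 and Otx2, patterning factors like Hoxb5, had 0.0842 TPM, 1.23 TPM, 0.0769 TPM, 0.0168 TPM, 1.00 TPM and 0.158 TPM.

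**Figure D3:**
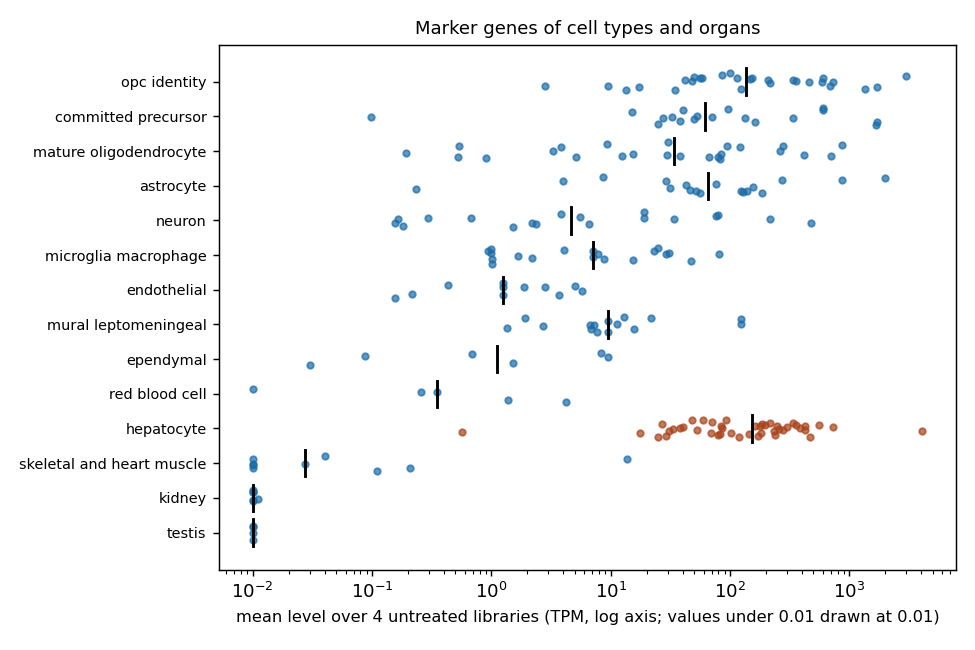
Mean TPM over the 4 untreated libraries (log axis, values under 0.01 drawn at 0.01), with 1 point per gene, 1 line of points per marker list and a black bar at the list's median. The medians are 135 TPM for OPC identity, 152 TPM for hepatocyte genes and 4.65 TPM for neuron genes.

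Of the lists for other brain cell types, the astrocyte list had the highest median level. The median of the astrocyte list was 65.6 TPM, of the neuron list 4.65 TPM, of the microglia list 7.09 TPM and of the endothelial list 1.26 TPM, against 135 TPM for OPC identity. Gfap, the intermediate filament of astrocytes, had 261, 546, 241 and 189.6 CPM, highest in control 2. Aqp4, the astrocyte water channel, had 88.1, 88.6, 84.4 and 24.1 CPM, lowest in control 4. Gjb6, an astrocyte connexin, was at 0.236 TPM and Gja1, another, at 8.69 TPM. Fabp7 had 687, 685, 662 and 622 CPM, the steadiest of the list at 1.10-fold; Fabp7, Slc1a3 and Apoe are also expressed by OPCs. Of 16 astrocyte genes with a mean of at least 10 CPM, 12 differed more than 2-fold, against 17.0%.

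Neuronal genes were mixed. Map2, a microtubule protein, had 981, 904, 946 and 946 CPM and Gap43, a growth cone protein, had 125, 168, 215 and 259 CPM; both are known in OPCs as well. Nefm, a neurofilament subunit, had 133, 283, 24.2 and 32.7 CPM, highest in control 2, where Nefl and Gad1 were highest too. The defining neuron genes Rbfox3, Slc17a7 and Slc17a6 had 0.671 TPM, 0.157 TPM and 0.292 TPM. Among microglia genes the lysosomal genes Ctss and Cd68 had 47.5 TPM and 31.1 TPM, and C1qa, a complement gene, had 4.05, 11.6, 4.85 and 7.26 CPM. Tmem119, P2ry12 and Aif1, markers of microglia, were at 0.937 TPM, 1.00 TPM and 1.66 TPM, and 0 of the 4 microglia genes above 10 CPM were past 2-fold, near the 17.0% of all genes. Their median range was 1.75-fold, against 1.40-fold for all genes. Endothelial Cldn5 was at 1.24 TPM, but 6 of 11 endothelial genes reached 1 CPM in every library. The 2 endothelial genes with a mean of at least 10 CPM were both past 2-fold. The summed CPM of the endothelial list was 76.1, 70.8, 26.6 and 21.3. Col1a1, a fibroblast collagen, had 27.3, 60.5, 20.7 and 45.2 CPM. The ependymal genes Tmem212 and Ccdc153 were below the level of 3 counts in every library, and Foxj1, a factor of ciliated cells, had 9.54 TPM.

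Growth factor receptors were led by Pdgfra at 736 ± 162 TPM and Ednrb, an endothelin receptor, at 592 ± 203 TPM. Ddr1, a collagen receptor of myelinating cells, followed with 218 ± 32.0 TPM, then Bmpr1a with 175 TPM and Lrp1 with 167 TPM. Of 43 listed, 38 reached 1 CPM in every library, against 28.7% of all genes, and 6 of 32 with a mean of at least 10 CPM differed more than 2-fold, near the 17.0% of all genes. Notch1 had 325, 303, 319 and 327 CPM and Il6st, the shared subunit of the interleukin-6 receptor family, 183, 218, 199 and 185 CPM, both within 1.2-fold. Fgfr1 and Egfr, growth factor receptors of progenitors, had 53.6 TPM and 34.9 TPM. Alk and Ret, receptor tyrosine kinases of neurons, were at 0.505 TPM and 1.04 TPM.

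Among receptors for monoamines, acetylcholine and peptides, 14 of 53 reached 1 CPM in every library, near the 28.7% of all genes. After Gpr17 and Ednrb came Adcyap1r1, the PACAP receptor, at 62.7 TPM, Calcrl at 52.2 TPM and Adora1, an adenosine receptor, at 44.8 TPM. Adra1d, Adra1b and Adra1a, the α1-adrenergic receptors, were low at 6.11 TPM, 3.63 TPM and 0.785 TPM. Adra1d was highest in control 2. Sstr1, a somatostatin receptor, had 0.687, 9.30, 13.6 and 18.3 CPM, a range of 26.6-fold. Opioid receptor Oprm1 and dopamine receptor Drd4 had no count in any library. Other G protein-coupled receptors were led by Gpr37l1 at 436 ± 204 TPM, F2r, the thrombin receptor, at 177 ± 26.2 TPM and Adgrg1, an adhesion receptor that OPC proliferation requires, at 152 ± 17.3 TPM.

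Nuclear receptors ranged widely. Thra, the main thyroid hormone receptor of the brain, had 225, 171, 149.9 and 105 CPM, and Nr3c1, the glucocorticoid receptor, 63.9, 78.4, 80.6 and 97.7 CPM. Nr4a1, an immediate early nuclear receptor, had 297, 611, 95.4 and 87.9 CPM, highest in control 2. Rorb, a retinoid-related orphan receptor, had 14.6, 28.3, 122 and 143 CPM, lowest in control 1. Esr2 and Esr1, the oestrogen receptors, were at 0.0863 TPM and 0.594 TPM.

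Glutamate receptor genes were led by the AMPA auxiliary subunit Cacng4 at 422 ± 133 TPM. Gria2, the AMPA subunit that limits calcium entry, had 403, 383, 527 and 479 CPM, and Grik3, a kainate subunit, 263, 213, 384 and 283 CPM. Gria4 was steady at 1.11-fold. Metabotropic Grm5 had 66.7, 121, 183 and 163 CPM, and NMDA subunits Grin2a and Grin2b were at 0.128 TPM and 0.390 TPM with Grin1 at 4.75 TPM. Among GABA and glycine receptor genes, Gabbr1 and Glrb had 61.7 TPM and 61.1 TPM, and Glra1 and Gabra6 had no count. Of the nicotinic and purinergic channels, Chrna4 had 95.0, 114, 127 and 138 CPM and P2rx7 45.9, 51.9, 72.0 and 87.4 CPM.

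Potassium channels were led by Kcnj10, the inward rectifier Kir4.1 of glia, at 299 ± 29.0 TPM. Kcna6 and Kcnd3, delayed and A-type channels, followed with 123 TPM and 74.9 TPM. Of 48 listed, 33 reached 1 CPM in every library, against 28.7% of all genes, and 6 of 17 above 10 CPM differed more than 2-fold, against 17.0%. Kcnj16, a partner of Kcnj10, had 4.46, 11.2, 5.04 and 34.4 CPM, highest in control 4, while Kcnj10 had 453, 485, 377 and 409.8 CPM. The sodium channel genes Scn3a and Nalcn had 19.2 TPM and 16.3 TPM. Of the 6 sodium channel genes above 10 CPM, 0 were past 2-fold and 0 under 1.2-fold, against 17.0% and 19.2% of all genes, and their median range of 1.38-fold was near the 1.40-fold of all genes. Among calcium genes, Stim2, a sensor of stored calcium, Cacnb3, a channel subunit, and Itpr2, an IP3 receptor, had 51.4 TPM, 51.0 TPM and 37.9 TPM. Cacna1h, a T-type channel, had 52.4, 57.0, 83.8 and 73.4 CPM.

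**Figure D4:**
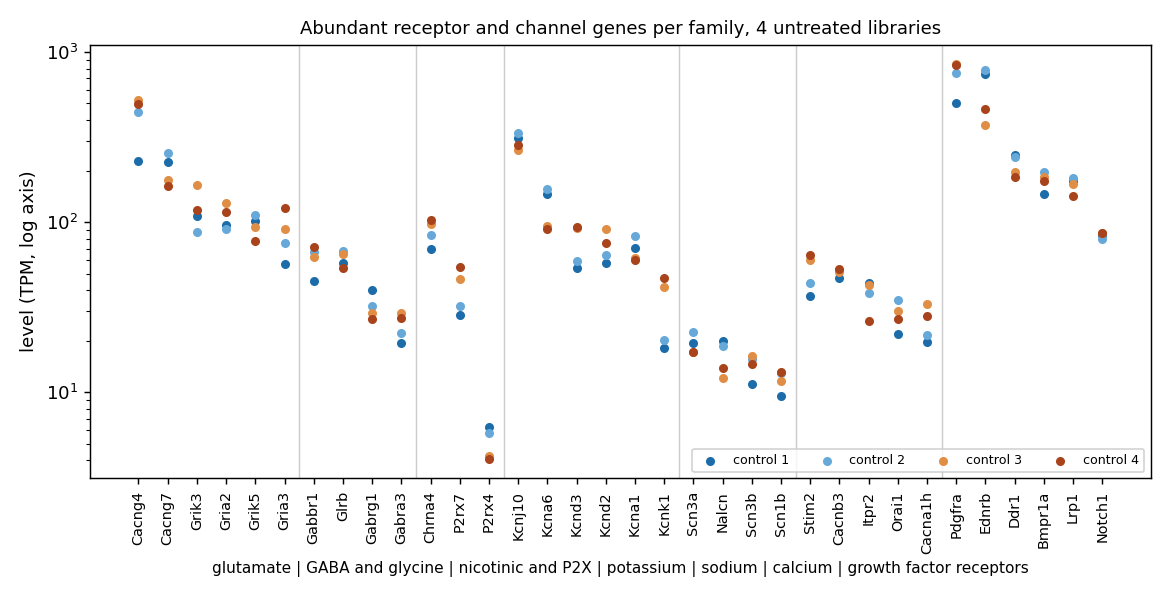
TPM (log axis) of abundant receptor and channel genes of 7 families, with 1 point per untreated library and grey lines between families. Pdgfra and Ednrb stand highest among the growth factor receptors and Kcnj10 among the potassium channels, and the sodium channel genes shown lie near 10 to 20 TPM.

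Transporters reached 1 CPM in every library for 32 of 34 listed, against 28.7% of all genes. Atp1b2, a sodium pump subunit, had 614, 961, 386 and 335 CPM, highest in control 2. Slc1a3 and Slc1a1, glutamate transporters, had 232, 344, 428 and 402 CPM and 467, 451, 225 and 207 CPM. Slc6a5, a glycine transporter of neurons, was at 0.0270 TPM. Tmem63b, a mechanosensitive channel, led the other channels at 134 ± 11.4 TPM, with Ttyh1 at 121 ± 63.4 TPM; Ttyh1 had 329, 273, 122 and 105 CPM, among the genes with Alb's profile.

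Cell cycle genes differed widely between libraries. Of 32 G1/S genes with a mean of at least 10 CPM, 30 had a range over 2-fold, and of 32 G2/M genes 21 did, against 17.0% of all genes. The median range of the G1/S list was 5.03-fold, against 1.40-fold for all genes. Ccnd1, the cyclin that starts G1, had 274, 478, 1783 and 2242 CPM, and Mcm6 had 72.1, 151, 365 and 417 CPM. Cdc6, which loads the replication helicase, had 3.43, 9.83, 59.1 and 58.0 CPM, and Mki67, a marker of dividing cells, had 468, 703, 1101 and 1269 CPM. All 4 genes were lowest in control 1, and control 4 was highest for Ccnd1, Mcm6 and Mki67. Cdk4, the kinase partner of the D cyclins, was steady at 499, 423, 406 and 411 CPM. Summed G1/S CPM was 2081, 3181, 7191 and 8149.9. The hepatocyte list's sums were in the opposite order, and its part in this was not tested. Inhibitors Cdkn1a and Tob2 differed 1.12-fold and 1.05-fold, but the inhibitor list was not steady as a whole. Of 13 inhibitors with a mean of at least 10 CPM, 5 had a range over 2-fold, against 17.0% of all genes. Another 3 stayed under 1.2-fold, against 19.2%, and the median range of the list was 1.40-fold.

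Immediate early genes, which turn on within minutes of a stimulus, were also spread, with 27 of 29 past 2-fold against 17.0%. Fos had 381, 493, 83.4 and 82.9 CPM and Egr1 had 493, 458, 134 and 181 CPM. Nr4a3 had 175, 257, 57.1 and 14.6 CPM, Arc had 13.9, 61.4, 5.04 and 5.96 CPM and Fosb had 25.8, 44.7, 4.33 and 6.30 CPM. Controls 1 and 2 were above controls 3 and 4 for all 5, and control 2 was highest for all but Egr1. Jun had 1241, 1607, 452 and 607 CPM, and Npas4 was low at 1.62 TPM. The list's summed CPM was 4869.5, 6332, 1972 and 2114.

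Metabolic lists were spread about as much as all genes. Cholesterol synthesis genes reached 1 CPM in every library for 24 of 24, against 28.7% of all genes. Past 2-fold were 3 of 24 cholesterol synthesis genes and 4 of 21 glycolysis and hypoxia genes above 10 CPM, near the 17.0% of all genes. The median ranges of these lists were 1.502-fold and 1.40-fold, against 1.40-fold. Hmgcs1, an early enzyme of the pathway, had 1435, 1367, 1059.7 and 1019 CPM. Insig1, a sterol sensor partner, had the widest range of the list, 2.53-fold. Among glycolysis genes Pkm had 633, 717, 775 and 852 CPM and Ldhb, a lactate dehydrogenase subunit, 196, 93.1, 64.1 and 72.5 CPM, highest in control 1. Stress genes were led by Hsp90ab1 with 2234, 2049, 2702 and 3235 CPM and Hspa5, the endoplasmic reticulum chaperone, with 580.4, 586, 668 and 732 CPM. Matrix genes included Ncan and Cntn1, with 1054, 1173, 1116 and 939.8 CPM and 1260.3, 1194, 1279 and 1207 CPM, and Tnc, tenascin-C, which had 48.3, 54.3, 180.3 and 318 CPM, highest in control 4.

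Over all 10549 genes with a mean of at least 10 CPM, the median range between the highest and lowest library was 1.40-fold and the median CV was 15.3%. More than 2-fold was reached by 1795 genes (17.0%), more than 4-fold by 251 and more than 10-fold by 41, and 2024 (19.2%) stayed under 1.2-fold. Among the 1795, 529 were highest in control 1 and lowest in control 4, 539 the reverse, and 235 were highest in control 3 and lowest in control 1. Leaving out control 1 left 1032 genes past 2-fold and 3317 under 1.2-fold, and leaving out control 4 left 3141 under 1.2-fold, over 3 libraries each, which can only narrow a range at equal scaling. Of the 150 genes with Alb's profile, 150 were past 2-fold, as the profile itself requires.

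**Figure D5:**
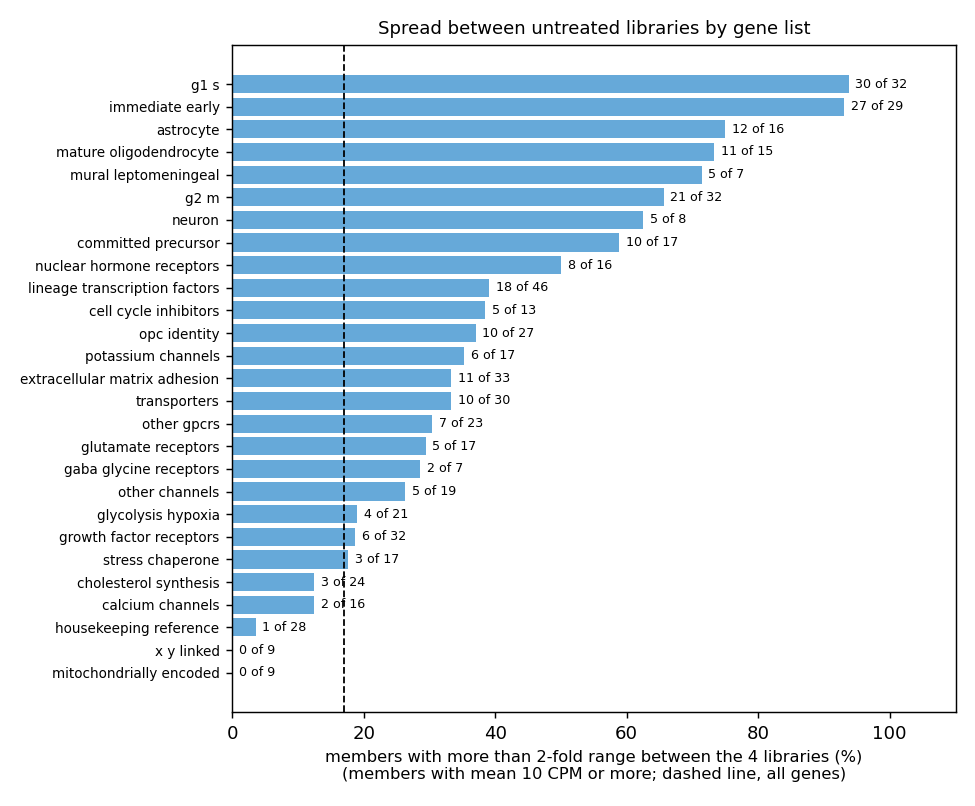
Share of each list's genes (%) whose highest and lowest untreated library differ more than 2-fold, among genes with a mean of at least 10 CPM, with the counts beside the bars and a dashed line at 17.0% for all genes. G1/S (30 of 32) and immediate early genes (27 of 29) have the longest bars, and the X- and Y-linked and mitochondrially encoded lists have 0 of 9 each.

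The widest ranges were in Rps2-ps13, a ribosomal pseudogene with 186, 48.4, 36.6 and 0.169 CPM, and in AI506816, with 3.91, 2.65, 42.2 and 195 CPM. Most of the 31-base words of Rps2-ps13, and of Rps3a3 and Rpl26 named below, are shared with other genes, so their levels are uncertain. Mobp and H19 came next, and H19, an imprinted noncoding RNA of growing tissue, had 1653, 1042, 117 and 42.0 CPM. Igf2, its imprinted neighbour that encodes a growth factor, had 39.8, 13.4, 2.20 and 2.76 CPM. Ptgs2, the inducible cyclooxygenase, Dll3, a Notch ligand, Hmga2, a chromatin protein of growing cells, and Bmp2, a growth factor, differed 21.4-fold, 18.1-fold, 18.7-fold and 13.5-fold. Sstr1, Rps3a3, Nr4a3, Syt13, Cdc6, Fam19a1, Arl4d, Rpl26, Slfn9, Acan and Srxn1 filled the 20.

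The ranges of the steadiest 20 ran from 1.017-fold for Pde4dip to 1.0345-fold for Sptbn4. Pde4dip, a scaffold of phosphodiesterases, had 187, 187, 189 and 186 CPM, and Fryl 154, 151, 152 and 151 CPM. Sun1, a nuclear envelope protein, had 70.9, 72.3, 72.1 and 72.0 CPM and Dlg1, a synaptic scaffold, 95.9, 94.0, 95.4 and 94.2 CPM. The others were Ubxn8, Mgea5, Tmem183a, Trabd, Mphosph6, Vcp-rs, Sgta, Tm9sf3, Capn2, Mob1b, Cog2, Pcdh17, Ocrl, Spata7, Acad8 and Sptbn4. Housekeeping references were steady as well, with 12 of 28 under 1.2-fold against 19.2% and 1 past 2-fold, Hprt at 2.13-fold, named after its values were seen. Actb had 2486, 2623, 2856 and 2705 CPM, and Rab7 differed 1.06-fold. The Y-linked genes Eif2s3y, Ddx3y and Uty differed 1.07-fold, 1.18-fold and 1.07-fold, and Xist, expressed from the inactive X, had 985, 654, 823 and 839 CPM.

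Several genes that every cell uses were listed at or near 0. These were mt-Co2, mt-Atp6, mt-Atp8, mt-Nd3 and mt-Nd4l, with no count, and mt-Co3, with 0.0792 TPM. Of their 31-base words, 98.1% (mt-Nd3) to 100% (mt-Co2) also occur in other annotated genes, except for mt-Atp8 with 7.47%. Gapdh, the glycolysis reference, had 6.44 ± 2.18 TPM, Rps18 20.8 ± 3.67 TPM and Vcp 19.4 ± 1.31 TPM. Vcp-rs, a copy of Vcp, had 547 TPM. Words shared with other genes made up 31.8% of Gapdh, 68.2% of Vcp and 80.7% of Trf. Shared words also exceeded 50% for mt-Co1, Eef1a1, Pkm, Apoa4, Igf2, Fen1, Gins2 and Sox4. The same held for Tuba1a, Rplp1, Rps15, Rps3a3, Rpl26 and Vcp-rs. Whether shared words set these levels was not tested, and the levels are uncertain. Exons of Fen1, Apoa4, Gins2, Igf2, Trf and Sox4 overlap another gene in over 50% of their bases (any strand). The kit named in the labels keeps no strand information, so reads of such gene pairs cannot be told apart.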

How the data were processed

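RNA of primary mouse OPCs was sequenced, and the deposited table holds whole-number read counts per Ensembl gene, 1 column per library, which the authors had not normalized. The submitters' processing notes name STAR, HTSeq and bcl2fastq 2.17 and the builds mm10 and GRCm38. Which annotation and strand setting were used, and how reads with several matches were treated, is not given in the sources used here. SMART-Seq v4 and Nextera XT kits amplified the cDNA, per the labels' protocols, so reads are not independent molecules and floors cover counting error only.

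The 4 control columns were used and the 3 PE columns were not. Groups came from the sample titles. CPM used TMM factors from edgeR 4.0.16 in R 4.3.3. TPM used union exon lengths from GENCODE M21, which held 48435 of the 48795 genes. The range of a gene is its highest over its lowest library CPM, read for genes with a mean of at least 10 CPM. Genes share Alb's profile if no library's share of the gene's summed CPM deviates more than 10% from that of Alb. Shared words are 31-base words of a gene's longest transcript that occur in another annotated gene. Promoter windows came from RefSeq. The ratio procedure was run on simulated counts with less spread between libraries than these data have. That run therefore does not check the counts of genes past 2-fold or under 1.2-fold given here. DESeq2 1.42.0 size factors, other filters and leaving out each library were alternatives.

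The members and the 34 lists (847 genes, 846 matched) were chosen with earlier results of these data known. A further 11 lists (hepatocytes, other organs), Alb's profile and 2 alternatives were added after the values were seen. Genes are named by rule: the 20 highest by CPM and by TPM, the 20 with the widest and narrowest range without Gm and Rik names, and of each list up to 10 by TPM, those at 0 or under 1 CPM and those with the widest range. Outside it, Adra1b, Camsap2, Egfr, Esr1, Fgfr1, Gapdh, Gja1, Gm42418, Grin1, Hnf4a, Mat1a, Mog, Opalin, Rps18, Tob2 and Vcp were named after their values were seen. No groups were compared. Chi-square values and Dixon's ratios only describe how the 4 libraries differ. A few genes named by the rule are not reported here.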

Additional observations from a re-analysis of the deposited data

Results flagged for a closer look

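In 8 of 230 sets of 4 control values, 1 library stood far from the other 3. Far means a Dixon's ratio of the gap to the range above its 95% critical value. Among the sets, 181 were of single genes and 45 of summed lists. About 1 in 20 independent sets would pass by chance, but these sets share the same 4 libraries, and summed lists hold single genes. The count of 8 is therefore not compared with chance, and few flags do not show that the libraries are alike. The water channel gene Aqp4 had 24.1 CPM in control 4, where the nearest library had 84.4 CPM. Arc, an activity-regulated gene, had 61.4 CPM in control 2, and the nearest library had 13.9 CPM. The connexin gene Gja1 had 39.2 CPM in control 3 against 20.1 CPM in the nearest library. The SoxE factor gene Sox8 had 434.6 CPM in control 1 against 230.0 CPM in the nearest. Nkx6-1 had 0.0563 CPM in control 4 and mt-Co3 0.0646 CPM in control 3, both below the level of 3 counts, with the other libraries at 0. The lineage transcription factors summed to 12221 CPM in control 1, where the nearest library had 10797 CPM. The X- and Y-linked genes summed to 1767 CPM in control 2, where the nearest library had 2205 CPM.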

How the results depend on the processing

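No paired analysis was possible because the report uses the control libraries alone and makes no test. The 14018 genes at 1 CPM in every library ran from 14104 to 14187 when 1 library was left out, and stayed within 1.5 times under each other filter and scaling tried. Genes past 2-fold, 1795 of those with a mean of at least 10 CPM, numbered 3974 with a mean of at least 1 CPM and 10743 with no filter on low counts, where counting error is largest. Leaving out 1 library gave 1032 to 1636 genes past 2-fold and 2853 to 3317 genes under 1.2-fold; with 3 libraries in place of 4 the range of a gene is narrower by construction. The 100 most abundant genes held 13.3% of counts, 11.8% without mitochondrially encoded genes and 13.2% without the hepatocyte genes, the last chosen after seeing the data, as was leaving out hepatocyte genes and genes with Alb's profile, which gave 1642 genes past 2-fold. The mean CPM of each of the 181 genes given values moved by less than 1 SD under DESeq2 size factors and library totals. Each left-out library gave the same, but leaving out 1 of 4 values cannot move a mean by 1 SD. That part therefore does not show that the means are independent of the library. With the longest transcript as length, the medians of 10 lists moved by more than their SD between libraries. The OPC identity median, from 134.9 to 131.6 TPM, stayed within its SD. By the same measure, 3 list medians moved without control 2 and 1 without control 3. None moved without control 1 or control 4, and 2 moved when TPM left out mitochondrially encoded genes. Depth limits genes below 0.169 to 0.227 CPM, the level of 3 counts, where 0 cannot be told from low expression.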
